A study of Mus musculus with 9 samples.

Results

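The genes described here are 10 markers of lipid-associated macrophages: Trem2, Gpnmb, Spp1, Cd9, Itgax, Lgals3, Mmp12, Ctsd, Ccr2 and Cd68. They were taken by gene symbol from a liver expression array, and 7 of the 10 had a transcript cluster, the array's unit of measurement, under their symbol. Spp1, Ctsd and Cd68 had none under their symbol, Entrez identifier or accession in the annotation used and are not analysed here. Each of the other 7 had a single cluster, out of 22206 on the array.

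Lipid-associated macrophages are tissue macrophages that gather around lipid-laden cells in obese fat and in fatty liver, take up and break down lipid, and are recognised by the lipid-sensing receptor Trem2 together with Gpnmb, Spp1 and Cd9. In the liver many of them derive from blood monocytes that enter through the chemokine receptor Ccr2, while the resident macrophages are Kupffer cells. Several of the markers are general phagocyte genes, and Cd9 is also made by cells that are not macrophages, so a change in whole tissue does not name its cell of origin.

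RNA from whole liver of male mice was hybridised to Clariom S mouse arrays, 1 array per sample and 3 samples in each of 3 groups. The wild-type group was C57BL/6JHamSlc-+/+ mice given vehicle, and the ob/ob vehicle group was C57BL/6JHamSlc-ob/ob mice, which lack functional leptin and become obese, also given vehicle. The extract group was ob/ob mice given an extract of Vigna umbellata, the rice bean, at 100 mg per kg body weight by oral gavage. Treatment ran for 42 days in mice that were 6 weeks old when bought and had 1 week to acclimatise, and all groups ate standard chow. The leptin defect is carried by the ob/ob mice in every tissue, and there was no wild-type group given the extract. Group sizes come from the labels and design text, which do not say how replicate numbers were given. The p-values measure only the spread between these arrays, and 3 arrays per group limit the precision.

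Values are log2 units, so a difference of 1 is a doubling. Array medians ran from 5.07 to 5.36. Wild-type replicate 3 and ob/ob vehicle replicate 3 stood apart from the rest: their correlations with the other arrays of their own groups were 0.948 to 0.955, beside 0.98 to 0.99 among the remaining arrays. Their values were also the least spread, with interquartile ranges of 3.01 and 3.26 against 3.36 to 3.85 elsewhere. For Mmp12, Gpnmb, Ccr2 and the gene lists, fits without 1 or both of these arrays are given where named. The array's detection calls were not used here. As a guide to dim values, each marker was set beside 1091 olfactory receptor genes, which liver is not known to use, on the same array. The top of the olfactory range, taken as their middle 95%, was 5.33 to 5.74 on 7 arrays, 6.44 on ob/ob vehicle replicate 3 and 6.62 on wild-type replicate 3.

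Promoter windows from RefSeq (mouse build GRCm38.p6) were found for all 10 markers, 12 windows in all, each running from 250 bases before a gene's start to 50 bases after it. Mmp12 is shown because the clearest differences below concern it. Gpnmb is shown beside it as a marker with no difference past a threshold in the 3 comparisons of groups. Capitals mark matches to the motifs searched on both strands: CACGTG, an E-box bound by the MITF and TFE family that drives lysosomal genes, GAGGAAGT, a core form bound by Ets factors such as the macrophage factor PU.1, and the AP-1 forms TGAGTCA and TGACTCA. Mmp12 has 2 annotated starts, at chr9:7344147-7344446 and chr9:7347124-7347423, both on the plus strand, and the Gpnmb window is chr6:49036268-49036567 on the plus strand.
Mmp12 first window: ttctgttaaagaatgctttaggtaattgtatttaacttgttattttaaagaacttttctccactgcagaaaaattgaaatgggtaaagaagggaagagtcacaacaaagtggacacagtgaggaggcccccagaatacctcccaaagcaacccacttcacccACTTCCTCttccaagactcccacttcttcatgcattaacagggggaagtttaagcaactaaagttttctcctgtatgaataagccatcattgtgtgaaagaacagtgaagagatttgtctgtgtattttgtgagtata
Mmp12 second window: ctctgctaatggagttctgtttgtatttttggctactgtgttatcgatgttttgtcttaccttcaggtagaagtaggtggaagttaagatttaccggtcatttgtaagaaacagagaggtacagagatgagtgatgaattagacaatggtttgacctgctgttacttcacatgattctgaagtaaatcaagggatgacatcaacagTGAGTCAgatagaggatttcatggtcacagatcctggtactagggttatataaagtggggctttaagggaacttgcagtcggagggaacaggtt
Gpnmb: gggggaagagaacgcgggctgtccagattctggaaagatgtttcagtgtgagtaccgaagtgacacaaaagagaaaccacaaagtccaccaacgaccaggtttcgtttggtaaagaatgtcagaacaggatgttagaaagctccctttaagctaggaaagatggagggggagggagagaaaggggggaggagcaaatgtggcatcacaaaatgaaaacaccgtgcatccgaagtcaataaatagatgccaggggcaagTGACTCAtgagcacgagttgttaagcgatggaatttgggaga
In the Mmp12 windows the Ets form lies on the reverse strand from position -88 of the first start, and an AP-1 form starts at position -44 of the second. Gpnmb holds an AP-1 form at position 9, counted from 1 at the gene start. Over all 10 markers, an AP-1 form was found in 4 (Cd68, Gpnmb, Itgax and Mmp12), the Ets form in 2 (Mmp12 and Spp1) and the E-box in 1 (Ctsd). Of all 32851 windows of this length, 5.2% held the AP-1 form, 3.2% the Ets form and 7.15% the E-box. The marker counts are per gene, over 12 windows, while these shares are per window, so they are not like for like. A match says only that the letters are there.

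The markers fell into 3 kinds by their values. Cd9, a membrane tetraspanin, was above the olfactory range on 9 of 9 arrays. Mmp12, macrophage metalloelastase, a secreted protease that cuts elastin, was above it on 0 of 3 wild-type, 3 of 3 ob/ob vehicle and 2 of 3 extract arrays. Gpnmb, a transmembrane glycoprotein of lysosome-rich macrophages, was above it on 2 of 9 arrays. Trem2, Itgax (the integrin CD11c), Lgals3 (galectin-3) and Ccr2 were above it on 0 of 9. For those 4, whether liver RNA was measured above background is not known here. In this bulk tissue a macrophage transcript is diluted by hepatocyte RNA, and fewer cells of a type cannot be told apart from less RNA per cell.

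**Figure D1:**
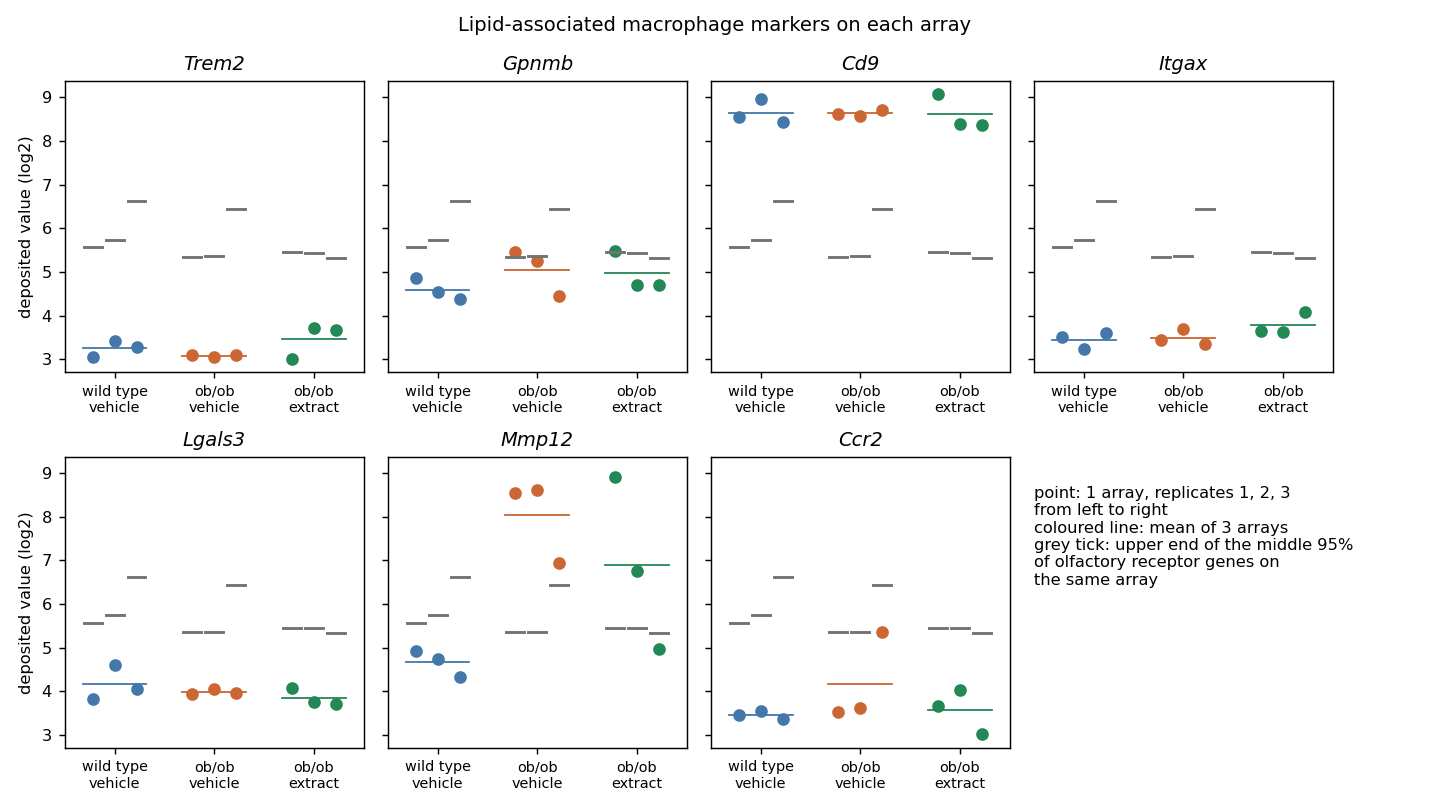
Each point is the deposited log2 value of a marker on 1 array (vertical axis), by group (horizontal axis), with coloured lines at the mean of 3 arrays and grey ticks at the top of the olfactory receptor range (middle 95%) on that array. Mmp12 lies above its tick on all 3 ob/ob vehicle arrays and on no wild-type array, while Trem2, Itgax, Lgals3 and Ccr2 stay below theirs on all 9 arrays.

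The comparison of ob/ob vehicle with wild-type vehicle livers asked which genes differ in the liver of obese mice. Mmp12 was the 1 marker that separated the groups: its mean was higher by 3.36 in ob/ob vehicle livers. The 3 wild-type values lay inside the olfactory range, so the size of that difference is not exact. None of the other 6 measured markers, Trem2, Gpnmb, Cd9, Itgax, Lgals3 and Ccr2, did so. By limma's adjusted p under 0.05 over all clusters, 0 of the 7 passed, beside 2.96% of all clusters. By the criterion in the study's design text, which asks for p under 0.05 before adjustment and a fold above 1.1, 1 of 7 passed (Mmp12), beside 17.0% of all clusters. The groups did not overlap for 1 of 7 (Mmp12), beside 19.5% of all clusters. The median difference of the 7 was 0.05, beside -0.06 for all clusters. With only 7 markers, these counts are too small to set the markers apart from all clusters.

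Mmp12 read 4.93, 4.75 and 4.33 in the wild-type livers. In the ob/ob vehicle livers it read 8.55, 8.61 and 6.93. The lowest ob/ob vehicle array, replicate 3, was 1 of the 2 arrays that stood apart, and it still lay above every wild-type array. The means were 8.03 ± 0.95 and 4.67 ± 0.31 (SD, n = 3 each), and the difference was 3.36 with a standard error of 0.82 and a 95% interval of 1.55 to 5.17. With all 9 arrays in the limma fit the adjusted p was 0.0578, just above the threshold of 0.05. Deviations of same-numbered wild-type and ob/ob vehicle arrays from their group means correlated by 0.26, 0.26 and 0.45. Number 3 is the pair that stood apart, and a shared deviation there can by itself raise the other correlations. With the replicate number as a block over all 9 arrays the adjusted p was 0.0178. That block also joins the extract arrays by number, although these were not taken as paired. With the number as a block in only these 2 groups, an alternative chosen after seeing the data, the adjusted p was 0.0024. It was 0.0184 without ob/ob vehicle replicate 3, 0.0211 without extract replicate 1 and 0.0291 without extract replicate 3, and 0.0859 to 0.191 in the other 6 fits that left out 1 array. Without both arrays that stood apart the difference was 3.74, with an adjusted p of 0.0238. The difference lay between 3.07 and 3.91 in all 9 fits that left out 1 array. The extract arrays enter this comparison only through the shared estimate of spread, and the spread of Mmp12 among them was the widest of the 3 groups.

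Gpnmb read 4.85, 4.53 and 4.38 in wild-type livers and 5.45, 5.25 and 4.46 in ob/ob vehicle livers. Its ob/ob vehicle replicates 1 and 2 lay above all wild-type arrays, and replicate 3 lay among them. The difference was 0.47 (95% interval -0.27 to 1.20, limma adjusted p = 0.529). Without ob/ob vehicle replicate 3 it was 0.76 with an unadjusted limma p of 0.0329 and an adjusted p of 0.171, which met the study's criterion but not the adjusted threshold. It was 0.27 without ob/ob vehicle replicate 1 and 0.099 with each array's interquartile range as a covariate.

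Ccr2, the monocyte receptor for the chemokine Ccl2, read 3.45, 3.55 and 3.37 in wild-type livers. Its ob/ob vehicle values were 3.52, 3.62 and 5.36. A single array, ob/ob vehicle replicate 3, carried the difference of 0.71 (95% interval -0.31 to 1.73, limma adjusted p = 0.480): without it the difference was 0.11. With each array's interquartile range as a covariate it was 1.44, with an unadjusted p of 0.00514 and an adjusted p of 0.0819. That array's olfactory receptor range was also raised, up to 6.44, and Ccr2 lay inside it.

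Trem2, the receptor after which the state is often named, read 3.06, 3.41 and 3.29 in wild-type livers and 3.09, 3.04 and 3.10 in ob/ob vehicle livers. The groups overlapped and the difference was -0.18 (95% interval -0.74 to 0.39, limma adjusted p = 0.787). Lgals3 read 3.83, 4.60 and 4.05 against 3.94, 4.06 and 3.95, a difference of -0.18 (95% interval -0.75 to 0.39). Itgax, common on dendritic cells and recruited macrophages, read 3.52, 3.24 and 3.59 against 3.44, 3.69 and 3.36, a difference of 0.05 (95% interval -0.48 to 0.58). All 3 of these lay in the olfactory range on all 9 arrays. Cd9 lay above it, at 8.56, 8.95 and 8.44 in wild-type livers against 8.61, 8.58 and 8.72 in ob/ob vehicle livers. The groups overlapped, and its difference was -0.01 with a 95% interval of -0.60 to 0.58.

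**Figure D2:**
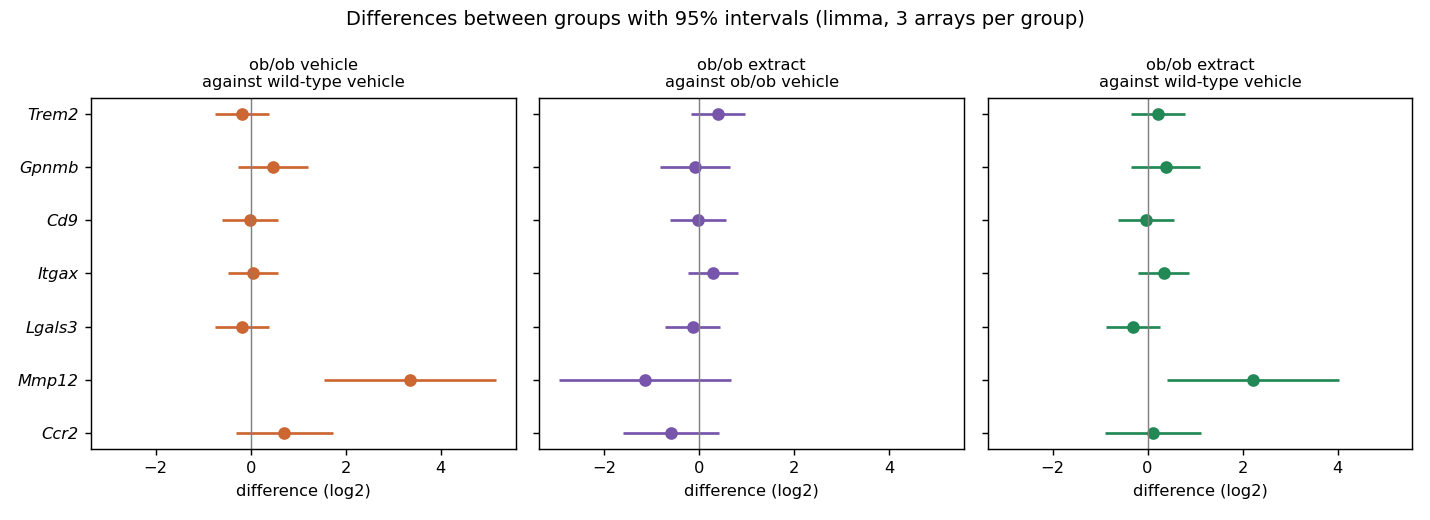
Points are differences between group means in log2 units (horizontal axis) for each measured marker (vertical axis) in each of the 3 comparisons, and lines are 95% intervals from the limma fit with 3 arrays per group. The interval of Mmp12 lies above 0 in both comparisons with wild type and spans 0 between the extract and vehicle groups of ob/ob mice, and the interval of every other marker spans 0.

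The comparison of extract with vehicle in ob/ob mice asked what the extract changed. No marker was distinguishable between these groups: 0 of 7 passed limma's adjusted p under 0.05, 0 of 7 passed the study's criterion, which here equals the count at an unadjusted p under 0.05, and 0 of 7 had groups that did not overlap. Over all clusters these shares were 0%, 6.45% and 13.6%. The median difference of the 7 was -0.09, beside -0.01 for all clusters.

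Mmp12 varied most in the extract group, reading 8.92, 6.75 and 4.98, with a mean of 6.88 ± 1.97 (SD, n = 3). Extract replicate 1 was the highest of all 9 arrays and extract replicate 3 lay just above the highest wild-type array, so this group alone spanned the range of both others. The difference from ob/ob vehicle was -1.15 (standard error 0.82, 95% interval -2.95 to 0.66, limma adjusted p = 0.847). It was -2.17 without extract replicate 1, -0.20 without extract replicate 3 and -1.70 without ob/ob vehicle replicate 3 (limma adjusted p = 0.498). The direction stayed negative in all 9 fits that left out 1 array. By mean, the order of the groups was ob/ob vehicle, extract and wild type, and neither neighbouring pair in that order was separated by limma's adjusted p.

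Trem2 read 3.01, 3.72 and 3.68 in the extract group. Its replicates 2 and 3 were the highest of the 9 arrays, although inside the olfactory range. The difference from ob/ob vehicle was 0.39 (95% interval -0.17 to 0.96, limma adjusted p = 0.839). Without extract replicate 1 it was 0.62, with an unadjusted limma p of 0.0338 and an adjusted p of 0.990, and in that fit 2 of 7 markers, Trem2 and Mmp12, met the study's criterion in opposite directions.

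Gpnmb read 5.49, 4.71 and 4.70 in the extract group, a difference of -0.09 (95% interval -0.82 to 0.65). As with Mmp12, extract replicate 1 was the highest of the 3. Cd9 read 9.07, 8.40 and 8.36, again highest in replicate 1, with a difference of -0.03 (95% interval -0.62 to 0.56). Itgax read 3.65, 3.63 and 4.09, a difference of 0.29 (95% interval -0.24 to 0.82). Lgals3 read 4.07, 3.76 and 3.71, a difference of -0.14 (95% interval -0.71 to 0.43). Ccr2 read 3.67, 4.02 and 3.03, a difference of -0.59 (95% interval -1.61 to 0.42) that was 0.003 without ob/ob vehicle replicate 3.

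The extract group was also set against wild type, which shares neither genotype nor treatment with it; this comparison and the first share the wild-type arrays. The Mmp12 difference was 2.21 (standard error 0.82, 95% interval 0.41 to 4.02) and the limma adjusted p was 0.256, with an unadjusted p of 0.0211. It was 1.20 without extract replicate 1 and 3.17 without extract replicate 3. The Mmp12 values did not overlap between the groups, but extract replicate 3, at 4.98, exceeded the highest wild-type value, 4.93, only slightly, and both lay inside the olfactory range. By limma's adjusted p 0 of 7 markers passed, beside 1.29% of all clusters, and by the study's criterion 1 of 7 (Mmp12), beside 14.0%. That 1 became 0 without wild-type replicate 3 and without extract replicate 1. The groups did not overlap for 2 of 7 (Mmp12 and Itgax), beside 21.7%. The Itgax difference of 0.34 (95% interval -0.19 to 0.87, adjusted p = 0.556) lay wholly in the olfactory range. The differences of the other 5 were 0.22 for Trem2, 0.38 for Gpnmb, -0.04 for Cd9, -0.31 for Lgals3 and 0.12 for Ccr2, all with intervals that span 0. The median of the 7 was 0.22, beside -0.05 for all clusters.

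The genes whose values followed each marker most closely over the 9 arrays were found by the root mean square difference after each gene's own mean was subtracted, which is a description over 9 arrays that share groups. Those nearest to Mmp12 were Cbr3, a carbonyl reductase (0.62), Srxn1, the sulfiredoxin that repairs oxidised peroxiredoxins (0.63), and Aqp8, a water and peroxide channel of hepatocytes (0.68). Cbr3 read 3.98, 4.37 and 5.04 in wild-type, 8.23, 9.12 and 7.62 in ob/ob vehicle and 10.05, 7.13 and 5.43 in extract livers. Like Mmp12, it was highest on extract replicate 1 and lower on extract replicate 3 than on any ob/ob vehicle array. Srxn1 read 9.22, 6.44 and 6.25 in the extract group and Aqp8 read 11.84, 10.27 and 9.16.

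The nearest genes to Ccr2 were Vps50 (0.20), Gbp3 (0.23) and Asnsd1 (0.24), and each of the 3 had its highest value on ob/ob vehicle replicate 3. Their values there were 7.87, 7.03 and 11.83, beside at most 6.76, 5.76 and 10.87 on any other array. Gpnmb lay nearest to Gng2 (0.13), Slc35c1 (0.13) and Dnajb2 (0.15), each of which was also higher on ob/ob vehicle replicates 1 and 2 and extract replicate 1 than on the other arrays. For the other 4 markers the pattern itself was small, with a standard deviation over the 9 arrays of 0.24 to 0.28. Their nearest genes were Mal, Zmynd12 and Pappa2 for Trem2, Csf2, C2cd4c and Kcnv1 for Cd9, Psd3, Espn and Rpap2 for Itgax, and Btbd18, Slitrk1 and Pcdh18 for Lgals3. No marker was among the nearest 3 genes of another marker.

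**Figure D3:**
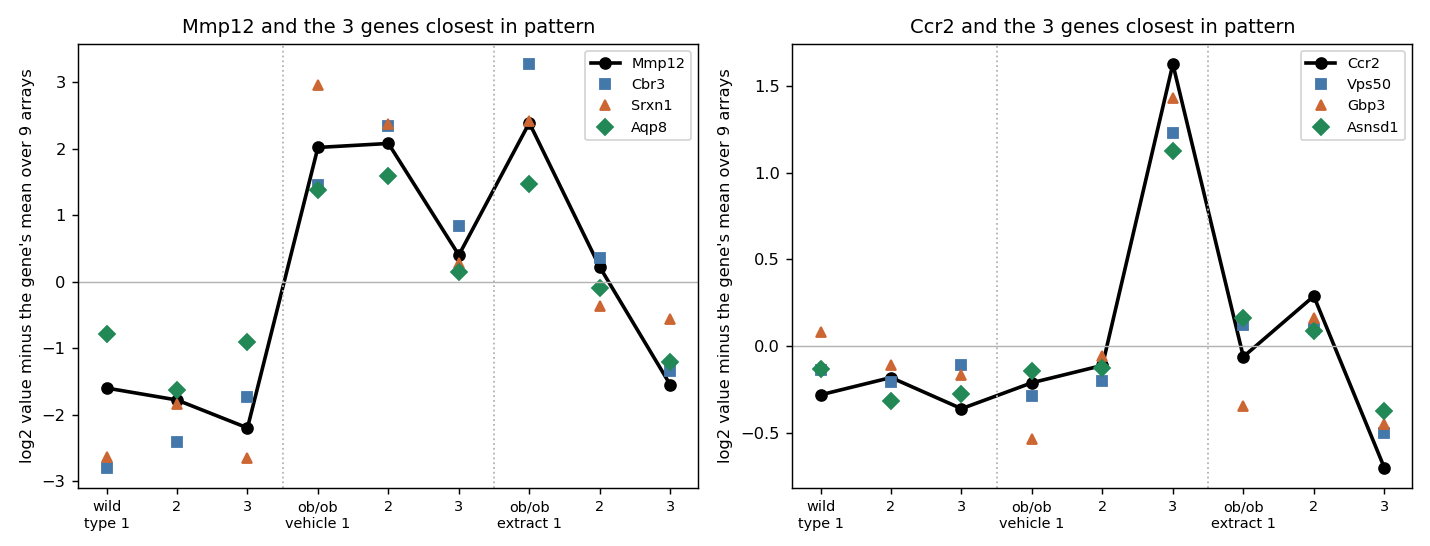
Values of Mmp12 (left) and Ccr2 (right) as black lines, with the 3 closest genes as symbols, as log2 value minus the gene's mean over 9 arrays (vertical axis), on each array in order of group and replicate (horizontal axis). Mmp12 and its neighbours are high on ob/ob vehicle replicates 1 and 2 and extract replicate 1, and Ccr2 and its neighbours have their peak on ob/ob vehicle replicate 3.

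Lists of genes around the markers were then followed, ordered by what the markers do. Counts in these lists stand beside the shares of all clusters, given in the order of the 3 comparisons above. By limma's adjusted p these shares were 2.96%, 0% and 1.29%, and by the study's criterion 17.0%, 6.45% and 14.0%. Partners of Trem2, which signals through the adaptor Tyrobp (DAP12) and the kinase Syk and is shed by the proteases Adam10 and Adam17, gave 0 of 13 measured genes past limma's adjusted p in ob/ob vehicle against wild type, with 1 past the study's criterion. That 1 was Adam10, at 0.70 (adjusted p = 0.193). Tyrobp read 5.04, 4.91 and 3.94 in wild-type and 4.07, 4.85 and 4.84 in ob/ob vehicle livers, with full overlap and inside the olfactory range. On each array only 2 to 5 of the 13 genes were above that range. For the rest a lack of calls does not show a lack of change. The list's median was -0.04, beside -0.06 for all clusters. Extract against vehicle also gave 0 of 13 by limma's adjusted p and 1 past the criterion, Plcg2 at 0.67 (adjusted p = 0.765), the phospholipase downstream of Syk. Extract against wild type gave 0 of 13 by either rule.

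Genes that foam cells use to take up, store and export lipid differed more. In ob/ob vehicle against wild type 6 of 18 measured genes were called, 5 higher and 1 lower. Cd36, the fatty acid and oxidised lipoprotein receptor, read 8.06, 7.68 and 8.40 in wild-type and 14.61, 14.46 and 15.09 in ob/ob vehicle livers, and rose by 6.67 (adjusted p = 1.17e-06). Pparg, the lipid-sensing nuclear receptor, rose by 3.51 (adjusted p = 0.00922), and the lipid droplet coat gene Plin2 by 3.04 (adjusted p = 0.0465). Lipa, the lysosomal acid lipase, rose by 2.00 (adjusted p = 0.0288) and the fatty acid carrier Fabp4 by 1.89 (adjusted p = 0.0235), while its relative Fabp5 fell by 1.72 (adjusted p = 0.0163). Cd36 and Pparg kept their calls in all 9 fits that left out 1 array, Fabp5 in 7, Fabp4 in 6, Lipa in 4 and Plin2 in 2. Plin2 and Lipa also lost theirs with quantile normalization and with the interquartile range covariate. With quantile normalization 3 of the 18 were called. The count was 2 without wild-type replicate 2 or ob/ob vehicle replicate 1, 3 without ob/ob vehicle replicate 2 and 7 without ob/ob vehicle replicate 3. Several of these genes are also used by hepatocytes in fatty liver, and their cell of origin was not tested. Between extract and vehicle 0 of 18 were called and 0 passed the criterion, with Cd36 at -0.45 and Pparg at -0.49. Against wild type, 4 were called in extract livers: Cd36 (6.23), Pparg (3.03) and Lipa (2.18) rose and Fabp5 fell by 1.82. That 4 was 1 without wild-type replicate 2, extract replicate 1 or extract replicate 2, and 2 without wild-type replicate 3.

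Lysosomal genes, the group to which Ctsd belongs, gave 2 of 25 called in ob/ob vehicle against wild type, both higher. They were Cd63, a tetraspanin of late endosomes (1.40, adjusted p = 0.0136), and Atp6v0d2, a proton pump subunit of macrophages and osteoclasts (1.92, adjusted p = 0.0288). Of the 25, 20 had a positive difference, and the median was 0.61 beside -0.06 for all clusters. The count was 10 without ob/ob vehicle replicate 3 and 9 without both arrays that stood apart. Over all clusters these fits called 1679 and 1745, beside 658 with all 9 arrays. It was 1 without wild-type replicate 3 or extract replicate 2. The lysosomal count was 0 without wild-type replicate 2, ob/ob vehicle replicate 1 or ob/ob vehicle replicate 2. Those fits called 147, 173 and 186 of all clusters. Among the 25, 0 were called between extract and vehicle, 1 passed the criterion (Tfe3 at -0.88) and the median was -0.29. With wild-type and ob/ob vehicle replicates 3 both left out, 3 were called, all lower, and the median was -0.59. Over all clusters that fit called 360, of which 312 were lower. Against wild type, the extract group had 1 called, Cd63 at 1.56, and it lost that call without wild-type replicate 2, extract replicate 1 or extract replicate 2, while 2 were called without wild-type replicate 1 or ob/ob vehicle replicate 3.

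The galectin list held relatives of Lgals3 and also Lgals3bp, which is not itself a galectin. Of its 7 measured genes 3 were called in ob/ob vehicle against wild type, all higher, beside 2.96% of all clusters. Lgals1 read 8.25, 7.70 and 9.09 in wild-type and 14.04, 13.87 and 14.22 in ob/ob vehicle livers, and rose by 5.70 (adjusted p = 1.46e-04). It kept that call in all 9 fits that left out 1 array. Lgals8, which marks damaged endosomes, rose by 2.04 (adjusted p = 0.0179) and the galectin-3 binding protein Lgals3bp by 1.26 (adjusted p = 0.0452). The count was 1 without wild-type replicate 2, ob/ob vehicle replicate 1 or ob/ob vehicle replicate 2. Lgals3bp kept its call in 2 of those 9 fits and lost it with the replicate block, with or without the extract arrays. Lgals3 itself, at -0.18, lay inside the olfactory range on all 9 arrays. Of these 7, 0 were called between extract and vehicle. The criterion was passed by 3, Lgals3bp (-1.08), Lgals9 (-1.34) and Lgals4 (1.19), beside 6.45% of all clusters. Without ob/ob vehicle replicate 3, 1 was called, beside 51 of all clusters. Compared with wild type, the extract group had Lgals1 (5.36) and Lgals8 (1.75, adjusted p = 0.0490) called. Lgals8 kept that call in 2 of 9 fits that left out 1 array.

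Cd9 belongs to the tetraspanins, membrane organisers, and Mmp12 to the matrix metalloproteinases. Of 11 tetraspanins 2 were called in ob/ob vehicle against wild type, where 2.96% of all clusters were, Cd151 (1.29, adjusted p = 0.0227) and Tspan31 (1.94, adjusted p = 0.0481), and 1 with the replicate block. The count was 0 without wild-type replicate 2, ob/ob vehicle replicate 1 or ob/ob vehicle replicate 2, and 1 without wild-type replicate 3 or any 1 of the extract arrays. Of 12 metalloproteinases and inhibitors other than Mmp12, 1 was called, Mmp19 (1.80, adjusted p = 0.0355), a call kept only without wild-type replicate 1 and without ob/ob vehicle replicate 3 among the 9 fits that left out 1 array. The median of these 12 was 0.09, and only 1 to 4 of them were above the olfactory range on each array. Receptors for osteopontin, the product of Spp1, gave 0 of 9 by limma's adjusted p and 3 past the study's criterion, and 1 was called without ob/ob vehicle replicate 3. Between extract and vehicle the tetraspanins, metalloproteinases and osteopontin receptors gave 0 called each, with 1, 0 and 3 past the criterion. Without both arrays that stood apart Mmp19 was called lower (-1.26, adjusted p = 0.0273), beside 312 of all clusters called lower. In extract against wild type these 3 lists also gave 0 called each, with 4, 2 and 1 past the criterion. There 1 metalloproteinase was called without ob/ob vehicle replicate 3.

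Monocyte genes, which travel with Ccr2, gave 0 of 18 by limma's adjusted p in ob/ob vehicle against wild type. On each array only 3 to 7 of the 18 were above the olfactory range. The study's criterion was passed by 2 of the 18, beside 17.0% of all clusters. Ccl2, the ligand of Ccr2, read 5.31, 5.14 and 5.76 in wild-type, 6.06, 6.07 and 6.37 in ob/ob vehicle and 5.67, 5.60 and 4.85 in extract livers. Its difference was 0.76 between the first 2 groups (adjusted p = 0.210) and -0.79 between extract and vehicle (adjusted p = 0.741). The second was Lyz2, the lysozyme of myeloid cells, at 1.83 (adjusted p = 0.144). Its highest value, 11.25, was on ob/ob vehicle replicate 3, the array that also carried the highest Ccr2. In extract against vehicle 0 of 18 were called and 2 passed the criterion, Ccl2 and Cx3cr1 (-1.33, adjusted p = 0.741). In extract against wild type 0 were called and 1 passed it.

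**Figure D4:**
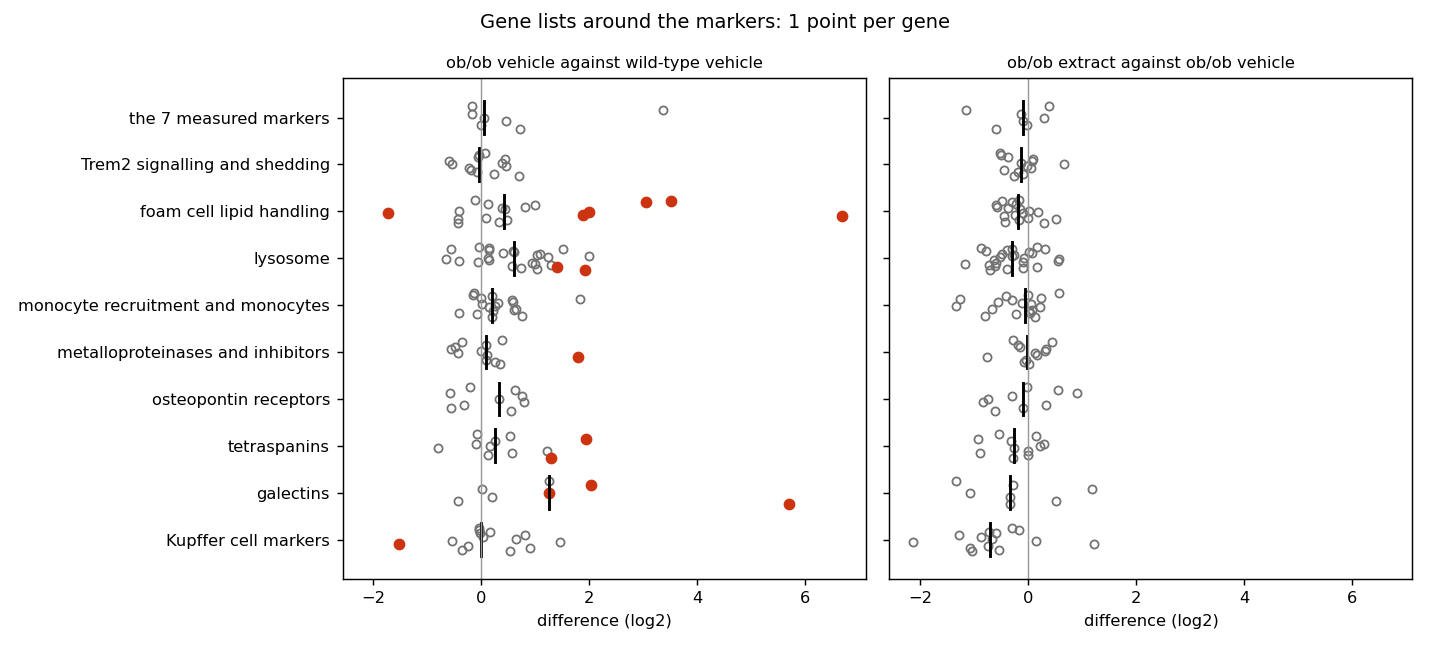
Each circle is 1 gene, placed by its difference in log2 units (horizontal axis) within its list (vertical axis), for ob/ob vehicle against wild type (left) and extract against vehicle (right). Filled circles passed limma's adjusted p under 0.05 and black bars are list medians: the called genes are all on the left, led by Cd36 at 6.67 and Lgals1 at 5.70, and Mmp12 at 3.36 is the 1 measured marker far from 0.

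Macrophage markers outside the lipid-associated set were read beside these values, as RNA levels that do not count cells. Hepatocyte markers were above the olfactory range for 8 of 8 genes on every array. Of 14 Kupffer cell markers 6 to 12 were above it, fewest on the 2 arrays that stood apart, where the olfactory range also reached highest. The mean log2 value of the Kupffer cell list was 6.45 to 7.06 in wild-type, 6.74 to 7.02 in ob/ob vehicle and 5.77 to 6.70 in extract livers. In ob/ob vehicle against wild type 1 of the 14 was called: Cd163, the haemoglobin scavenger receptor, fell by 1.53 (adjusted p = 0.0417), and it kept that call in 2 of 9 fits that left out 1 array. The median of the 14 was -0.00, beside -0.06 for all clusters, with 7 of the 14 differences positive.

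In extract against vehicle 12 of 14 Kupffer cell markers had a negative difference and 0 were called by limma. The study's criterion was passed by 5 of the 14, beside 6.45% of all clusters. The median was -0.70, and -0.95 without both arrays that stood apart. Cd5l, a secreted macrophage protein, read 9.63, 9.0 and 10.44 with vehicle and 8.19, 8.10 and 6.40 with extract (-2.13, adjusted p = 0.707). Adgre1, the F4/80 antigen, was at -1.05 and C1qb at -1.07, and Cd163 went the other way at 1.22 (adjusted p = 0.707). Mmp12 and the Kupffer cell list were both lowest among the extract livers on replicate 3 and both highest on replicate 1, and the part of cell content in the Mmp12 spread was not tested. In extract against wild type 14 of 14 were negative with a median of -0.50, 0 were called by limma and 1 passed the criterion. The pan-leukocyte list of 3 genes had a mean of 5.03 to 5.55 in wild-type, 5.42 to 5.86 in ob/ob vehicle and 4.88 to 5.14 in extract livers. Ptprc, the CD45 gene of all leukocytes, differed by 0.53 in ob/ob vehicle against wild type (adjusted p = 0.550) and by -0.38 in extract against vehicle (adjusted p = 0.887). Laptm5, a lysosomal membrane protein of blood cells on the same list, named after its values were seen, read 6.40, 6.47 and 5.72 in wild-type, 7.94, 7.88 and 5.19 in ob/ob vehicle and 6.00, 5.68 and 5.45 in extract livers. It was lowest of all 9 on ob/ob vehicle replicate 3, and without that array it was higher in ob/ob vehicle than in wild-type livers by 1.71 (adjusted p = 0.00836) and differed by -2.20 between extract and vehicle (adjusted p = 0.0266). With all 9 arrays these were 0.81 (adjusted p = 0.571) and -1.29 (adjusted p = 0.777). Without ob/ob vehicle replicate 3, 1679 of all clusters were called between ob/ob vehicle and wild type. Between extract and vehicle 51 were, all lower. Ptprc was highest of all 9 on that array, at 7.15. Coro1a, the remaining gene, read 3.27, 4.27 and 4.14 in wild-type, 3.43, 3.28 and 3.93 in ob/ob vehicle and 3.19, 3.16 and 3.52 in extract livers. Without that array the list's median was 0.23 in ob/ob vehicle against wild type, with 1 of 3 negative. Between extract and vehicle it was -0.07, with 3 of 3 negative.

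Markers of dendritic cells, neutrophils, B cells, T and NK cells and cholangiocytes were mostly in the olfactory range. Stellate cell markers had 3 to 7 of 9 above it on each array, and endothelial markers 5 to 7 of 7. Of 9 dendritic cell markers, the cells in which Itgax is best known, 2 or 3 were above it on each array, and 0 were called in any comparison, with 2, 0 and 2 past the study's criterion. Neutrophil markers had 0 to 2 of 9 above it and B cell markers 0 of 3 on all arrays. T and NK cell markers had 1 of 10 above it on every array, and cholangiocyte markers 0 to 3 of 7. By limma's adjusted p 0 genes of the neutrophil, B cell, T and NK cell, cholangiocyte, stellate, endothelial and hepatocyte lists were called in the 3 comparisons, and 0 to 4 genes of a list passed the study's criterion. In ob/ob vehicle against wild type 4 hepatocyte genes passed it, all with negative differences, and 6 of 8 differences were negative, with a median of -0.55 beside -0.06 for all clusters. Without ob/ob vehicle replicate 3, 1 hepatocyte gene was called lower in ob/ob vehicle against wild type (Fgb, -1.33, adjusted p = 0.0104). There 1 endothelial gene (Lyve1, 1.55, adjusted p = 0.0334) and 1 cholangiocyte gene (Sox9, 1.01, adjusted p = 0.0490) were called higher. That fit called 1679 of all clusters, beside 658 with all 9 arrays. The median of the 7 endothelial genes between extract and vehicle was -0.17, and -0.62 with 7 of 7 negative without ob/ob vehicle replicate 3.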

How the data were processed

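The deposited table holds log2 values to 2 decimals for each transcript cluster on each array. Per the submitters' processing notes and the design text, the authors used Transcriptome Analysis Console (version 4.0.2) with the SST-RMA algorithm, which averages probes robustly after a transformation that stretches compressed differences, so the size of a difference depends on that step. The design text's detection filter was not applied here. No genome build for the array is given in the sources used here. The platform annotation named 19572 of 22206 clusters, and 2634 have no symbol. Depth does not apply to arrays: the number of arrays limits the precision.

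The values were used as deposited. limma 3.58.1 in R 4.3.3 fitted a mean per group over all 9 arrays (6 residual and 4.45 prior degrees of freedom, eBayes defaults, two-sided), with Benjamini-Hochberg adjustment over all clusters and a call at an adjusted p under 0.05. The fit was tested on simulated data with known changes. This fit was chosen because the study's text describes a variance analysis moderated by empirical Bayes. Its criterion (p under 0.05 before adjustment, fold above 1.1) is given as well. A fit with 1 array left out of a group assumes that group varies like the others.

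Replicate numbers come from the sample titles. Deviations from the group means correlated by 0.26, 0.26 and 0.45 between same-numbered wild-type and ob/ob vehicle arrays, all over 0.1, so the numbers were taken to pair these groups, although no label says what they share and number 3 is the pair of arrays that stood apart. The correlations were -0.21 to -0.04 for wild type with extract and -0.13 to 0.02 for ob/ob vehicle with extract, which were not taken as paired. Deviations from a group's mean cancel out within the group, so a shared deviation at number 3 can by itself raise the correlations at the other numbers.

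All 10 markers are named, with up to 4 genes by smallest p from each list, every called gene, and the 3 genes nearest in pattern to each marker (predicted genes and olfactory or vomeronasal receptors left out). The markers and lists were chosen with earlier results of these data known, and no list is independent support. Alternatives were 9 other settings, each array left out in turn, and 1 setting added after seeing the data.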

Additional observations from a re-analysis of the deposited data

How the results depend on the processing

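Of the 7 markers' differences under the alternatives, 352 values kept direction and side of the threshold, 26 changed sign and 9 passed the threshold anew, all 9 for Mmp12 in ob/ob vehicle against wild type. The cause of these changes was not tested. In that comparison the count of markers called, 0, was 1 with the other group's arrays left out, with the replicate block, with that block and only the 2 groups (added after seeing the data), with array weights, without the lowest 30% of clusters and with both arrays that stood apart removed. The adjusted p of Mmp12 was 0.0208, 0.0178, 0.0024, 0.00942, 0.0446 and 0.0238 under these, and 0.0596 with quantile normalization, 0.0540 with array medians subtracted, 0.111 with the interquartile range as covariate and 0.0809 with trend and robust settings. Leaving out 1 array gave 0 to 1 called. The count past the study's criterion, 1, was 2 with array weights (Gpnmb added) and with each array's interquartile range in the fit (Ccr2 added), and 1 to 2 with 1 array left out. In extract against vehicle that count, 0, was 2 with array weights (Trem2 and Mmp12) and 0 to 2 with 1 array left out. In extract against wild type the count, 1, was 0 with that covariate and 0 to 1 with 1 array left out. The replicate block changed no other marker's call: with it 0 markers were called in extract against vehicle and in extract against wild type, and all clusters called went from 0 to 0 and from 287 to 283. Of 6 samples, 5 correlated best with their own number between wild type and ob/ob vehicle, and 0 in each of the other pairs of groups.

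Signs changed for small differences. For Cd9 the difference was 0.11 with array medians subtracted and 0.045 with the interquartile range covariate in ob/ob vehicle against wild type, 0.033 with quantile normalization and 0.015 without both arrays that stood apart in extract against vehicle, and 0.10 with medians subtracted and 0.008 with the covariate in extract against wild type. For Itgax in ob/ob vehicle against wild type it was -0.037 with the covariate, and for Ccr2 in extract against vehicle 0.003 without both arrays. With 1 array left out, Cd9 ran from -0.12 to 0.14, from -0.26 to 0.10 and from -0.27 to 0.11 in the 3 comparisons. In ob/ob vehicle against wild type Itgax ran from -0.058 to 0.117 and Lgals3 from -0.342 to 0.043. In extract against vehicle Gpnmb ran from -0.38 to 0.11 and Ccr2 from -0.92 to 0.003, and Ccr2 in extract against wild type from -0.11 to 0.39. Trem2, Itgax, Lgals3 and Ccr2 fall among the lowest 30% of clusters and have no value under that filter. Over all clusters the count called in ob/ob vehicle against wild type, 658, was 207 with only the 2 groups, 2137 with array weights and 1745 without both arrays that stood apart, and 147 to 1679 with 1 array left out. With quantile normalization 290 were higher and 256 lower, beside 507 and 151, and with the covariate 541 and 312. In ob/ob vehicle against wild type, the genes called in the foam cell, lysosome, metalloproteinase, tetraspanin and galectin lists, 6, 2, 1, 2 and 3, were 3, 0, 0, 0 and 1 with only the 2 groups, 3, 3, 0, 0 and 2 with quantile normalization, and 8 in the lysosome list with array weights and 1 with the covariate. Signal over background limits what can be read of the dim markers.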
